A study of Mus musculus with 6 samples.

Results

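The collagen genes of mouse liver were compared between the genotypes IRE1PKO and IRE1fl. They were taken as every symbol of the count table made of Col, a type number, the letter a and a chain number, which gave 44 of 35976 genes. Of these, 11 encode fibrillar chains, 6 basement membrane chains of type IV, 6 beaded filament chains of type VI and 21 chains of other types. Male mice of genotype IRE1PKO (3 libraries) and IRE1fl (3 libraries) were used, and all of them received the diet labelled HFD, read here as a high-fat diet. All livers were taken after 16 hours without food followed by 4 hours of feeding, and poly(A) RNA was sequenced. IRE1, which Ern1 encodes, senses unfolded protein in the endoplasmic reticulum. What PKO stands for is not written out, while the title of the series places the work in communication between pituitary and liver. No source used here gives the driver of the deletion or the age of the mice. None says whether a library is 1 animal, so the p-values describe only how these libraries vary.

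Collagens are secreted proteins in which 3 chains wind into a triple helix, and the helix needs a glycine at the start of each residue triplet. Fibrillar chains build the cables of scar tissue, type IV chains form the sheet of basement membranes, and type VI chains form beaded filaments between cells and fibrils. In injured liver, activated stellate cells are the best known source of fibrillar collagen, while endothelial cells also make basement membrane chains.

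The repeat can be read in the coding sequences of the genes that the results turn on. A script looked for runs in which each triplet of codons starts with a glycine codon (GGN) in the longest coding sequence of each member in GENCODE M21 (build GRCm38, the same as mm10). All 44 members had such a run. The longest uninterrupted run had 216 to 344 triplets in fibrillar chains, 39 to 66 in basement membrane chains, 37 to 87 in beaded filament chains and 23 to 113 in the others. The first 10 triplets of the longest run are shown for 2 fibrillar chains, a basement membrane chain and the most abundant collagen transcript of these livers. They read 5′ to 3′, with the glycine codon that starts each triplet in capitals. All other codons are in lower case, also where they encode glycine, as in Col3a1.
Col1a1: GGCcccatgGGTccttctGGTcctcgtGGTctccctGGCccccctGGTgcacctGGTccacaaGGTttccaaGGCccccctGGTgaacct
Col3a1: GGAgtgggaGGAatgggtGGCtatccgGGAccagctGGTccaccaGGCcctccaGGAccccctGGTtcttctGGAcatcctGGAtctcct
Col4a1: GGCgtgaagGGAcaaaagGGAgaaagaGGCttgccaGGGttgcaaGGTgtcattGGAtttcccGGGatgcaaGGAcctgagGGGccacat
Col18a1: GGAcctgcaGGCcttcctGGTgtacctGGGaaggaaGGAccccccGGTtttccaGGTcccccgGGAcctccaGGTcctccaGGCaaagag
In Col1a1 the run went on for 338 triplets from codon 168 to codon 1181, and in Col3a1 for 344 triplets. In Col4a1 it stopped after 40 triplets and the coding sequence held 22 separate runs of 5 or more. Col4a2, Col14a1 and Col6a3, 3 other members described here, had longest runs of 66, 32 and 45 triplets. Col18a1 had 30 triplets at most, in 16 runs of 5 or more.

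**Figure D1:**
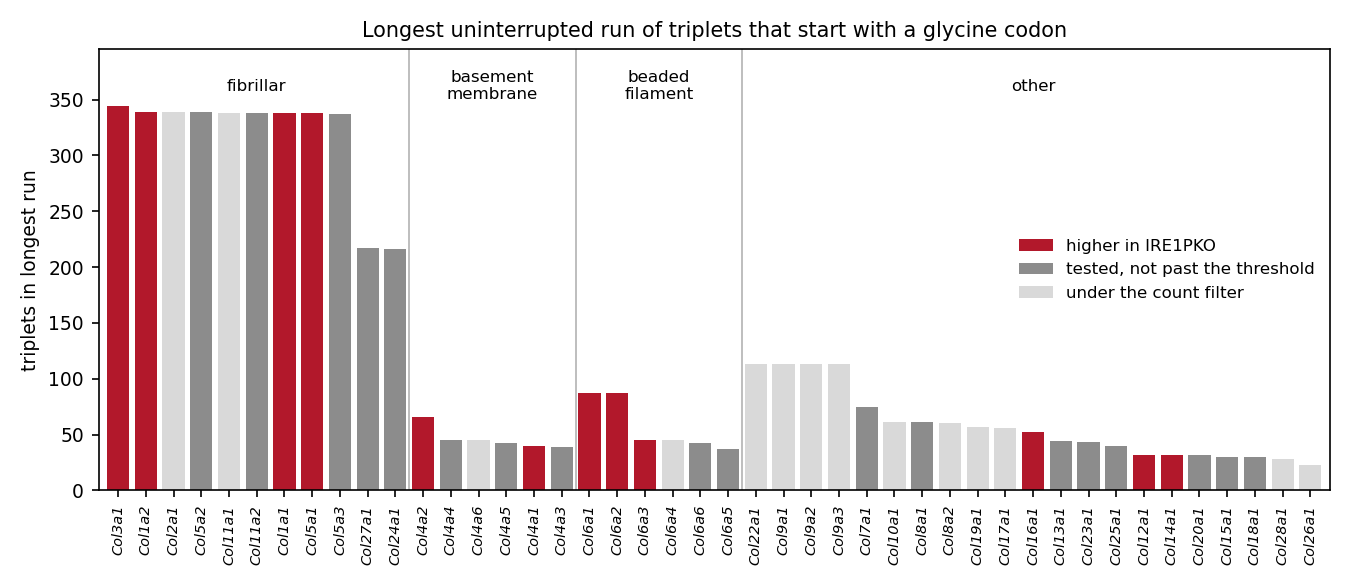
Bars give, for each of the 44 collagen genes, the number of triplets in the longest uninterrupted run that starts each triplet with a glycine codon, grouped by type. Fibrillar chains reach 216 to 344 triplets and every other member stays at 113 or below; genes higher in IRE1PKO (red) appear in all 4 types.

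Totals ranged from 35776219 to 39277435 counts per library, and Alb, the albumin gene and a defining hepatocyte marker, took 5.56% to 7.19% of them. Ern1 had 45.7, 36.6 and 44.2 CPM (gene counts scaled to a common library total) in the IRE1PKO livers, against 61.2, 49.3 and 60.8 CPM in the IRE1fl livers. Ern1 fell in IRE1PKO livers, with a log2 fold change of -0.44 (SE 0.11, edgeR adjusted p = 0.0357). The call was lost when any single library but IRE1fl 2 was left out (edgeR adjusted p at most 0.137) and with library totals only (0.0660). Where the deletion acts is not known here, so this value is a weak check of the labels.

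Of 30 collagen genes that passed the filter on low counts, 12 rose in IRE1PKO livers and none fell (edgeR quasi-likelihood, Benjamini-Hochberg adjusted p under 0.05, adjusted across the 14954 genes tested). In that whole set 9.54% of genes were called, 5.68% higher and 3.86% lower. The rises were 1.64-fold to 4.23-fold and included 4 of 9 tested fibrillar chains, 2 of 5 basement membrane chains, 3 of 5 beaded filament chains and 3 of 11 other chains. Of the 12 genes, 7 were at least 2-fold higher, a size that 2.12% of all tested genes reached with a call. In each of the 12 the IRE1PKO and IRE1fl libraries did not overlap, which held in the higher direction for 16.0% of all tested genes. The median log2 fold change of the 30 tested members was 0.38, against -0.0014 over all tested genes; it was 0.17 without IRE1PKO 3. Of the 18 tested members that did not pass, 6 had a mean under 1 CPM in both genotypes. Of 21 members with at least 1 CPM in both, 12 rose. With the filter set at a mean of 1 CPM instead, 12 of 23 tested members and 790 of 12569 tested genes were called higher. Although no member fell past the threshold, Col25a1 and Col4a4 were lower at an unadjusted p under 0.05, and the DESeq2 Wald test called both lower while limma-voom called neither. In bulk tissue, more RNA per cell and more cells of the type that makes it cannot be told apart.

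**Figure D2:**
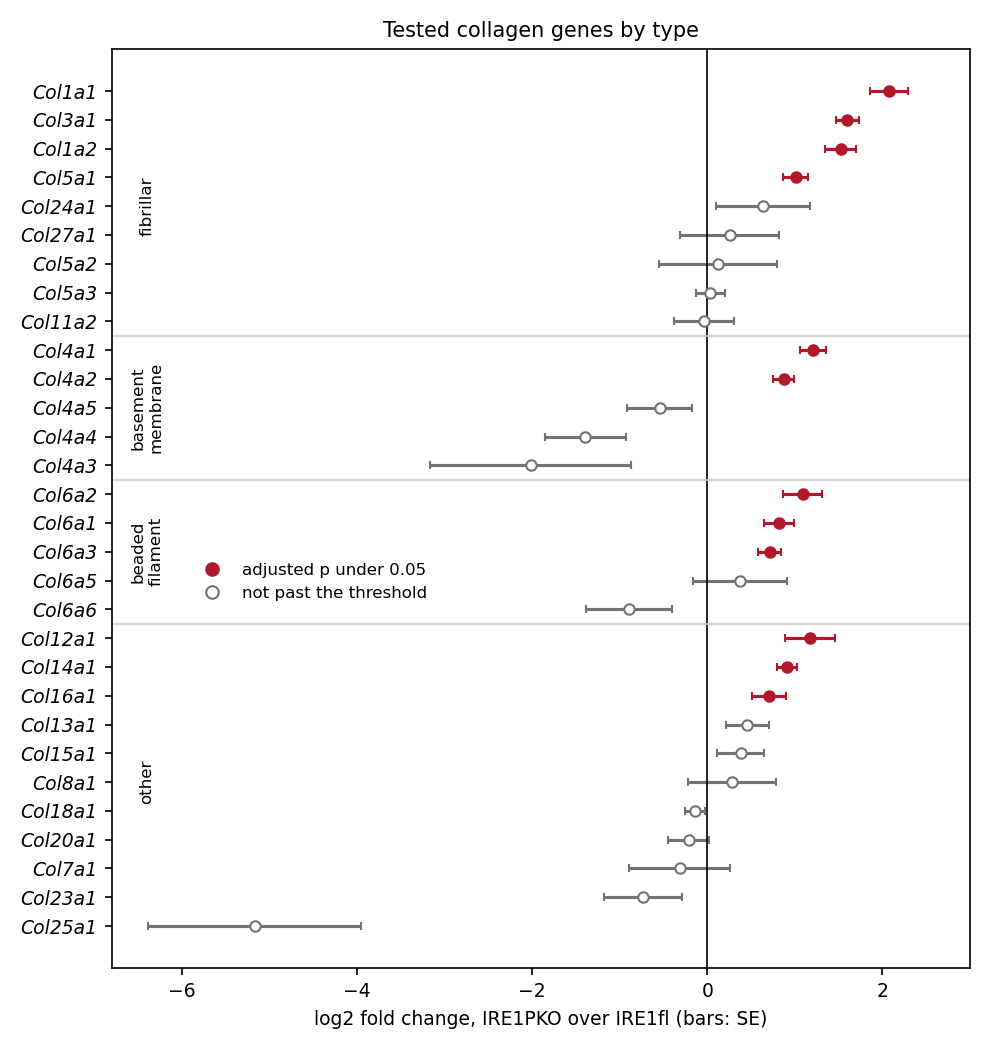
Points give the log2 fold change of IRE1PKO over IRE1fl for each of the 30 tested collagen genes, with bars of 1 standard error, grouped by type. The 12 genes past the threshold (filled) lie between 0.71 and 2.08, and the lowest open point is Col25a1 at -5.17 with a standard error of 1.21.

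The chains of types I and III had the 3 largest rises. Col1a1 (chromosome 11, 94936224 to 94953042, mm10), which encodes the major chain of type I collagen, had 37.3, 32.1 and 39.9 CPM in IRE1PKO livers and 11.9, 6.44 and 7.55 CPM in IRE1fl livers. The lowest IRE1PKO library was above the highest IRE1fl library, and the log2 fold change was 2.08 (SE 0.22, edgeR adjusted p = 0.00165). Col1a2 (chromosome 6, 4504814 to 4541544), which encodes the partner chain, had 34.5, 36.9 and 39.7 CPM in IRE1PKO livers and 16.9, 11.6 and 10.1 CPM in IRE1fl livers. It rose by a log2 value of 1.53 (SE 0.17, edgeR adjusted p = 0.00137). Col3a1 (chromosome 1, 45311538 to 45349706), whose product forms the fine reticular fibres of liver, had 81.0, 77.8 and 79.9 CPM in IRE1PKO livers and 32.0, 21.2 and 25.5 CPM in IRE1fl livers. The IRE1PKO libraries lay within 1.04-fold of each other, the smallest spread in IRE1PKO among the 12 genes, and the log2 rise was 1.60 (SE 0.13, edgeR adjusted p = 0.000156).

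Of the 3 chains of type V collagen, which seeds fibrils and limits their width, 1 passed the test. Col5a1 (chromosome 2, 27886425 to 28039514), its main chain, had 18.6, 19.03 and 15.4 CPM in IRE1PKO livers and 10.2, 8.60 and 7.46 CPM in IRE1fl livers, a log2 rise of 1.01 (SE 0.15, edgeR adjusted p = 0.00186). Col5a2, a partner chain that lies 24614 bases from Col3a1 on chromosome 1 in the opposite orientation, had 6.75, 5.998 and 6.84 CPM in IRE1PKO livers and 11.7, 1.79 and 4.53 CPM in IRE1fl livers. The IRE1fl libraries spread on both sides of the IRE1PKO libraries, and the log2 difference was 0.12 (SE 0.67). Col5a3, the remaining chain, was abundant in both genotypes, with 87.0, 66.2 and 70.6 CPM in IRE1PKO livers and 82.6, 80.9 and 55.2 CPM in IRE1fl livers. Its log2 difference was 0.034 (SE 0.17), and the ranges overlapped.

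Of the other fibrillar chains, Col27a1 had 56.6, 60.4 and 68.7 CPM in IRE1PKO livers and 24.5, 93.8 and 37.2 CPM in IRE1fl livers. IRE1fl 2 alone stood above the IRE1PKO libraries; without it the log2 difference was 1.001 and passed (edgeR adjusted p = 0.0146), whereas with all libraries it was 0.26 (SE 0.56). Col11a2, mostly known from cartilage, averaged 1.24 ± 0.361 CPM in IRE1PKO and 1.27 ± 0.266 CPM in IRE1fl (SD, n = 3 each). Col24a1, a minor fibrillar chain, averaged 0.835 ± 0.267 CPM in IRE1PKO and 0.535 ± 0.323 CPM in IRE1fl, with a log2 difference of 0.64 (SE 0.54). Col2a1, the cartilage collagen, had at most 2 counts in any library and Col11a1 none at all.

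**Figure D3:**
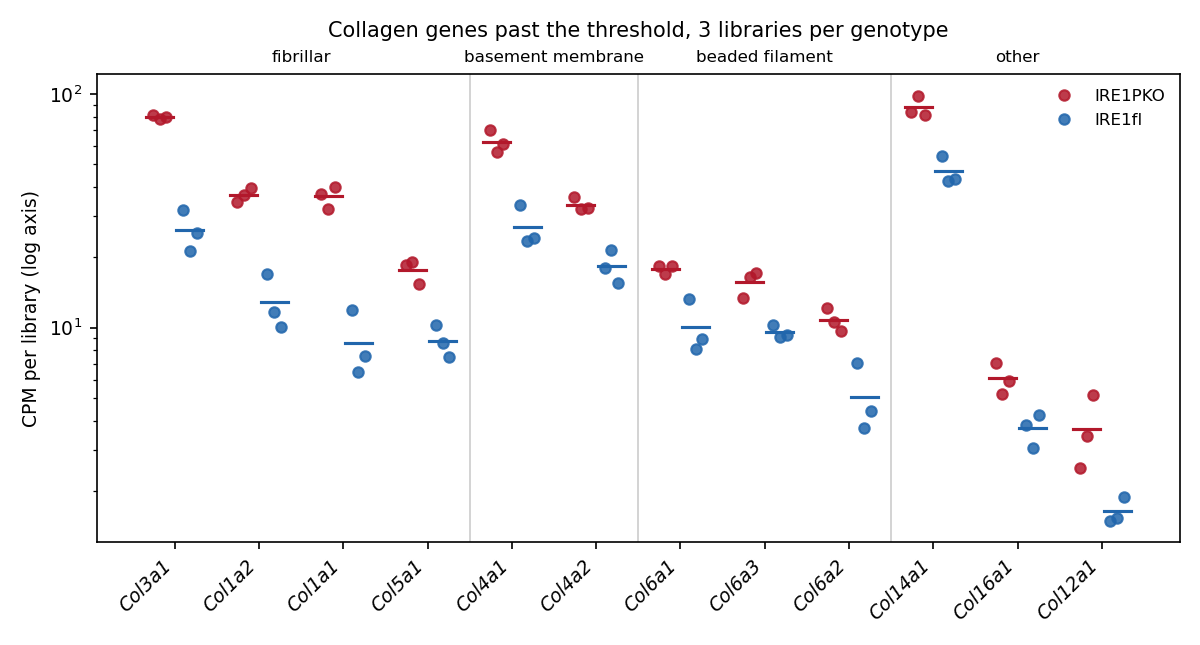
Points give CPM in each library on a log axis for the 12 collagen genes past the threshold, with IRE1PKO in red, IRE1fl in blue and lines at the group means, ordered by type. For each gene the 3 IRE1PKO points lie above the 3 IRE1fl points, from Col14a1 at a mean of 87.9 CPM in IRE1PKO down to Col12a1 at 3.70 CPM.

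In the basement membrane group, the broadly expressed chains rose and the tissue-restricted ones did not. Col4a1 (chromosome 8, 11198423 to 11312826) had 70.0, 56.3 and 61.1 CPM in IRE1PKO livers and 33.5, 23.4 and 24.2 CPM in IRE1fl livers, a log2 rise of 1.21 (SE 0.14, edgeR adjusted p = 0.00134). Col4a2 (chromosome 8, 11312805 to 11449287), which encodes its partner in the trimer, had 36.3, 32.4 and 32.4 CPM in IRE1PKO livers and 18, 21.6 and 15.6 CPM in IRE1fl livers, a rise of 0.87 (SE 0.12, edgeR adjusted p = 0.00165). For both genes the lowest IRE1PKO value exceeded the highest IRE1fl value.

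Col4a1 and Col4a2 lie head to head, on opposite strands, and are shown because both rose. In RefSeq (GRCm38.p6) their start sites are 21 bases apart, and windows of 250 bases before to 50 bases after each start share 78 bases. The windows are chr8:11312777-11313076 on the minus strand for Col4a1 and chr8:11312555-11312854 on the plus strand for Col4a2. Capitals mark the CCAAT box (CCAAT) and the GC box (GGGCGG), searched on both strands.
Col4a1: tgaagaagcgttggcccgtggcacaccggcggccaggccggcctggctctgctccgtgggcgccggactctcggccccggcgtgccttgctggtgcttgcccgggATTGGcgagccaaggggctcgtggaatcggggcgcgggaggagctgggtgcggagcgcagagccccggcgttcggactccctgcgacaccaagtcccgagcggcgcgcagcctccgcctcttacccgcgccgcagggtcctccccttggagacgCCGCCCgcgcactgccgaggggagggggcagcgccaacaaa
Col4a2: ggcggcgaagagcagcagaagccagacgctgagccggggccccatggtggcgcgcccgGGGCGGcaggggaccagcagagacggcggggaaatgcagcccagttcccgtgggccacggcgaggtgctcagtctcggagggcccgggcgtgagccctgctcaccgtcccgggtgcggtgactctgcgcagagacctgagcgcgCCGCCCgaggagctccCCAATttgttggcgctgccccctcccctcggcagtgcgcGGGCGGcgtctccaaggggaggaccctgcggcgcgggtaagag
Such windows were found for 35 of the 44 members, 38 windows in all, and were searched for 5 motifs on both strands. The 9 members without a window, which were not searched, included 3 that rose: Col1a1, Col12a1 and Col14a1. The GC box was in 60.5% of the members' windows and in 35.7% of all 32851 windows of this length, while the CCAAT box was in 34.2% and 37.4%. The TATA box (TATAAA) was in 13.2% of the members' windows and in 13.6% of all windows. None of the members' windows held the ER stress element (CCAAT, then 9 bases of any kind, then CCACG, so that it contains a CCAAT box) or the unfolded protein response element (TGACGTGG), which were in 0.119% and 0.676% of all windows. These are matches of letters and not sites of binding.

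The second head-to-head pair, Col4a3 and Col4a4 on chromosome 1, encodes chains best known from the kidney filter, and the genes are 71 bases apart. Col4a3 had 0.565, 0.733 and 0.489 CPM in IRE1PKO livers and 0.803, 0.312 and 6.12 CPM in IRE1fl livers. IRE1fl 3 set the difference of -2.02 (SE 1.15), which was 0.091 without that library. Col4a4 had 0.359, 0.380 and 0.684 CPM in IRE1PKO livers and 0.942, 0.851 and 1.97 CPM in IRE1fl livers, with a log2 difference of -1.39 (SE 0.47, edgeR adjusted p = 0.0868) and no overlap. The third pair lies on chromosome X. Col4a5, with 1.67, 1.22 and 1.05 CPM in IRE1PKO livers and 2.27, 0.993 and 2.48 CPM in IRE1fl livers, overlapped between genotypes, and Col4a6 had 4 to 12 counts per library and was not tested.

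The 3 standard chains of type VI collagen, which form beaded filaments around cells, rose together, while the alternative long chains stayed scarce. Col6a1 (chromosome 10, 76708792 to 76726168) had 18.3, 16.9 and 18.4 CPM in IRE1PKO livers and 13.3, 8.09 and 8.92 CPM in IRE1fl livers, a log2 rise of 0.83 (SE 0.17, edgeR adjusted p = 0.0137). Col6a2, its neighbour on the same strand, had 12.2, 10.6 and 9.63 CPM in IRE1PKO livers and 7.06, 3.72 and 4.42 CPM in IRE1fl livers, a rise of 1.09 (SE 0.22). Col6a3 (chromosome 1, 90765923 to 90843971) had 13.4, 16.5 and 17.2 CPM in IRE1PKO livers and 10.2, 9.11 and 9.32 CPM in IRE1fl livers, a rise of 0.71 (SE 0.13). In each of the 3, IRE1fl 1 was the highest IRE1fl library and remained below all IRE1PKO libraries. The calls of Col6a1 and Col6a2 were lost without IRE1PKO 1 or IRE1fl 3 (edgeR adjusted p up to 0.0672), and that of Col6a3 was kept. Col6a5 averaged 0.407 ± 0.156 CPM in IRE1PKO and 0.314 ± 0.117 CPM in IRE1fl, and Col6a6 0.512 ± 0.188 and 0.953 ± 0.474 CPM (SD, n = 3 each). Neither passed, and Col6a4 had at most 8 counts in a library.

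Among the chains of other types, those that decorate the surface of fibrils (fibril-associated collagens) rose in 3 of 4 tested genes. Col14a1 (chromosome 15, 55307750 to 55520803) had 83.8, 98.5 and 81.4 CPM in IRE1PKO livers and 54.1, 42.6 and 43.2 CPM in IRE1fl livers. It rose by a log2 value of 0.92 (SE 0.11, edgeR adjusted p = 0.0011) and had the highest mean CPM of the members that rose. Col12a1 (chromosome 9, 79598991 to 79718831), a related chain, had 2.52, 3.45 and 5.13 CPM in IRE1PKO livers and 1.496, 1.53 and 1.89 CPM in IRE1fl livers, a rise of 1.17 (SE 0.29). Col16a1 (chromosome 4, 130047840 to 130099283) had 7.03, 5.21 and 5.94 CPM in IRE1PKO livers and 3.82, 3.06 and 4.23 CPM in IRE1fl livers, a rise of 0.71 (SE 0.20). In both genes the lowest IRE1PKO library was above the highest IRE1fl library, by a small margin. The Col12a1 call was lost without any 1 library other than IRE1PKO 1 (edgeR adjusted p at most 0.0936), and the Col16a1 call without any 1 library (up to 0.177). Col20a1 averaged 4.15 ± 1.023 CPM in IRE1PKO and 4.81 ± 1.11 CPM in IRE1fl and did not pass.

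Col18a1, a multiplexin of the basement membrane zone that hepatocytes are known to make and whose end fragment is endostatin, was by far the most abundant collagen transcript. It had 1128, 1162 and 911 CPM in IRE1PKO livers and 1146, 1200 and 1188 CPM in IRE1fl livers. IRE1PKO 3 was the lowest, the other libraries overlapped, and the log2 difference was -0.14 (SE 0.11, edgeR adjusted p = 0.482). Col15a1, the other multiplexin, had 8.99, 6.11 and 9.56 CPM in IRE1PKO livers and 4.10, 8.62 and 6.23 CPM in IRE1fl livers, a difference of 0.38 (SE 0.27) that did not pass.

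None of the 3 tested transmembrane collagens passed. Col13a1 averaged 5.73 ± 0.757 CPM in IRE1PKO and 4.18 ± 1.52 CPM in IRE1fl, and Col23a1 0.375 ± 0.0587 and 0.629 ± 0.130 CPM (SD, n = 3 each); neither passed. Col25a1, best known from neurons, had 0, 0.163 and 0.0489 CPM in IRE1PKO livers and 0.526, 1.82 and 5.44 CPM in IRE1fl livers. The groups did not overlap, in a range of 0 to 202 counts, and the log2 difference of -5.17 (SE 1.21) just missed the threshold (edgeR adjusted p = 0.0503). Without IRE1fl 1 or IRE1fl 3 it passed, and without any 1 of the other 4 libraries its edgeR adjusted p was 0.110 to 0.160. Col7a1, of the anchoring fibrils of skin, and Col8a1, of vessel walls, averaged 0.458 ± 0.143 and 0.561 ± 0.141 CPM in IRE1PKO, against 0.569 ± 0.386 and 0.459 ± 0.220 CPM in IRE1fl.

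The remaining 14 members did not pass the filter, with at most 14 counts in any library. They were Col2a1, Col11a1, Col4a6, Col6a4, Col8a2, Col9a1, Col9a2, Col9a3, Col10a1, Col17a1, Col19a1, Col22a1, Col26a1 and Col28a1. Col9a1, Col11a1 and Col26a1 had no count in any library. Col10a1 had no count in the IRE1PKO libraries and 4, 4 and 2 counts in the IRE1fl libraries.

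Per kilobase of exon (GENCODE M21), the order of the members differed between genotypes below the first place. Col18a1 led with 157 ± 20.1 CPM per kilobase in IRE1PKO and 173 ± 4.19 in IRE1fl (SD, n = 3 each). In IRE1PKO it was followed by Col3a1 at 14.3 ± 0.290, Col14a1 at 13.6 ± 1.44 and Col5a3 at 12.2 ± 1.79 CPM per kilobase, 3 genes whose levels lay within their spread. Col4a1 at 9.44 ± 1.06 and Col27a1 at 8.13 ± 0.816 came next, before Col1a2 at 6.92 ± 0.481 and Col1a1 at 6.14 ± 0.677 CPM per kilobase. In IRE1fl the order after Col18a1 was Col5a3 at 11.9 ± 2.51, Col14a1 at 7.22 ± 0.999, Col27a1 at 6.81 ± 4.85 and Col3a1 at 4.72 ± 0.979 CPM per kilobase. Col3a1 thus stood in place 2 in IRE1PKO and in place 5 in IRE1fl, and Col1a1 in places 8 and 10. Place 5 depended on IRE1fl 2: without that library Col27a1 averaged 4.06 and Col3a1 5.17 CPM per kilobase in IRE1fl, and Col3a1 stood in place 4.

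Since Col18a1 alone held 61.1% to 67.5% of collagen counts in IRE1PKO and 76.4% to 80.0% in IRE1fl, the summed level depends on it. All 44 members took 0.168% ± 0.0106 of unscaled counts in IRE1PKO and 0.148% ± 0.00710 in IRE1fl (SD, n = 3 each). Without Col18a1 they took 0.0592% ± 0.00174 and 0.0331% ± 0.00441. As CPM on the scaled totals, all members summed to 1491 to 1723 in IRE1PKO and 1485 to 1566 in IRE1fl, so the genotypes overlapped. Without Col18a1 the sums ran from 561 to 593 CPM in IRE1PKO livers and from 297 to 366 CPM in IRE1fl livers. By type, fibrillar chains summed to 316 ± 13.8 CPM in IRE1PKO and 189 ± 38.3 CPM in IRE1fl, basement membrane chains to 98.7 ± 9.24 and 51.3 ± 4.21 CPM, and beaded filament chains to 45.3 ± 0.903 and 26.0 ± 4.92 CPM. These sums are descriptions and were not tested.

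**Figure D4:**
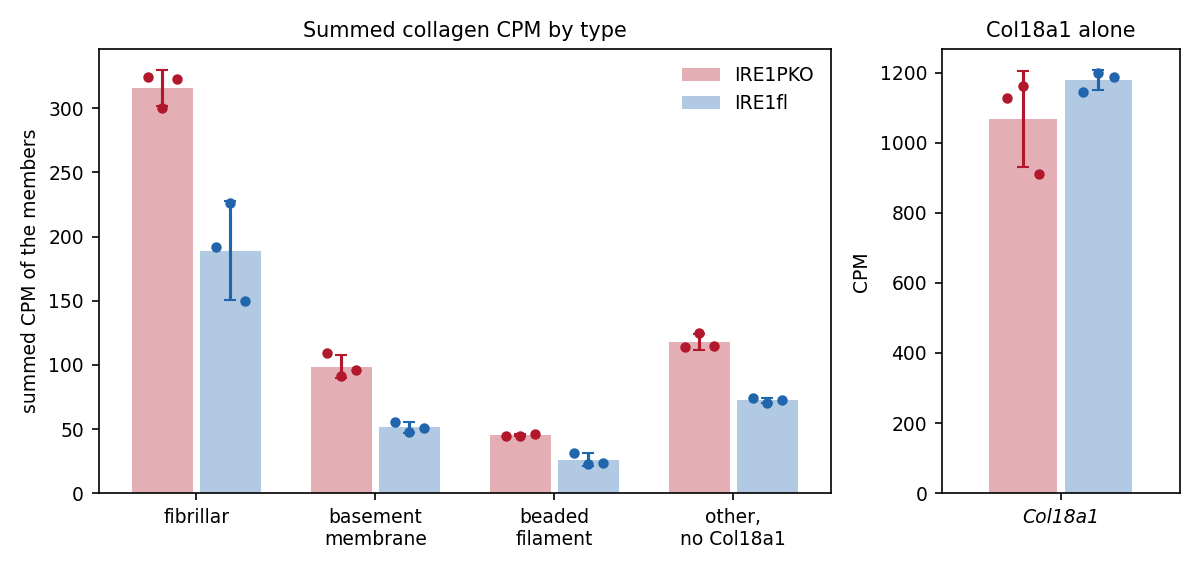
Bars give the mean summed CPM of the collagen genes of each type, with whiskers of 1 SD and a point per library, IRE1PKO in red to the left of IRE1fl in blue; Col18a1 has its own axis. Without Col18a1 every type lies higher in the IRE1PKO libraries, for example 98.7 against 51.3 CPM in basement membrane chains, while Col18a1 overlaps between genotypes.

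Libraries of 1 genotype differed in order over the genes that rose. Among the IRE1PKO libraries, none was highest in more than 5 of the 12 genes, and IRE1PKO 2 was lowest in 6. Among the IRE1fl libraries, IRE1fl 1 was highest in 9 and IRE1fl 2 lowest in 8. The ratio of counts per kilobase was computed for 7 pairs of chains chosen with the values known. It was not tested, and the share of other gene pairs without overlap was not counted. The Col1a1 to Col1a2 ratio was 0.974, 0.784 and 0.908 in IRE1PKO livers and 0.634, 0.499 and 0.677 in IRE1fl livers, without overlap. The Col3a1 to Col1a1 ratio, between chains of types III and I, was 2.31, 2.59 and 2.13 in IRE1PKO livers. In IRE1fl livers it was 2.87, 3.51 and 3.60, also without overlap. For the other 5 pairs, which included Col4a1 to Col4a2 and Col6a1 to Col6a2, the genotypes overlapped.

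Genes that fold, trim, cross-link and bind collagen were read in the same fit, which called 5.68% of all tested genes higher and 3.86% lower. In the endoplasmic reticulum, 2 of 20 tested genes of folding and modification rose and 1 fell (median 0.30). Serpinh1, the collagen chaperone HSP47, rose to 25.5 ± 1.37 CPM in IRE1PKO, against 15.8 ± 1.09 CPM in IRE1fl (SD, n = 3 each), a log2 rise of 0.69 (SE 0.10). Mia2, an export receptor for large cargo, rose by 0.31 (SE 0.08) and Ppib, a prolyl isomerase, fell by 0.44 (SE 0.11), though both calls were lost without any of several single libraries (edgeR adjusted p up to 0.105). Of 6 propeptide cleavage genes, Adamts2 and Adamts14, proteases that trim procollagens, rose by 0.83 (SE 0.15) and 1.23 (SE 0.28), the second not without IRE1PKO 1 or IRE1fl 3. Of 5 lysyl oxidases, which cross-link fibrils, Loxl2 rose by 1.40 (SE 0.24).

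Of 13 tested matrix genes that bind collagen fibrils, 8 rose and none fell (median 0.59); the number was 5 without IRE1PKO 2 or IRE1fl 2 and 4 without IRE1fl 3. Thbs1, a thrombospondin, rose by 1.70 (SE 0.24), Tnxb, a tenascin, by 0.84 (SE 0.12) and Dcn, the proteoglycan decorin, by 0.59 (SE 0.09). Of 15 partners of type IV collagen in basement membranes, 4 rose and 1 fell (median 0.43). The laminin gene Lamc1 rose by 0.72 (SE 0.10), the nidogen gene Nid1 by 1.07 (SE 0.16) and Hspg2, which encodes perlecan, by 0.65 (SE 0.15). Lamb3 rose and Lama3 fell, both named after their values were seen; these calls and that of Hspg2 were lost without IRE1PKO 1, IRE1PKO 2 or IRE1fl 2, among others. None of 9 tested collagen receptors passed by edgeR, DESeq2 or limma-voom, and 3 were higher at an unadjusted p under 0.05. The share of all genes at that unadjusted cutoff was not counted. Itgb1, the shared integrin chain, averaged 172 ± 1.27 CPM in IRE1PKO and 159 ± 3.85 CPM in IRE1fl. Of 9 collagenases and inhibitors, Mmp13 and Mmp2 rose by 3.20 (SE 0.74) and 1.26 (SE 0.31). Neither call held without IRE1PKO 1, IRE1PKO 3 or IRE1fl 3. The Mmp13 call was also lost without IRE1PKO 2, and that of Mmp2 without IRE1fl 2. Mmp13 was scarce, with 0.924, 1.09 and 1.12 CPM in IRE1PKO livers and 0.277, 0 and 0.0539 CPM in IRE1fl livers.

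Markers of cells that make collagen were read beside these values, in the fit that called 5.68% of all tested genes higher and 3.86% lower. Of 19 tested stellate cell markers other than collagens, 5 rose and none fell (median 0.29), and their summed level was 652 to 762 CPM in IRE1PKO and 522 to 613 CPM in IRE1fl, and none of the 20 listed genes was at 0 in every library. Lrat, which stores retinol as ester, rose by 0.96 (SE 0.13), Pdgfrb, a growth factor receptor, by 0.83 (SE 0.14), and Dcn is also in this list. Reln and Hgf, named after their values were seen, completed the 5, which became 3 without IRE1PKO 2, IRE1fl 2 or IRE1fl 3. Of 13 portal fibroblast and mesothelial markers, Gas6 alone rose, by 1.54 (SE 0.27), and the list summed to 151 to 231 CPM in IRE1PKO and 55.0 to 88.0 CPM in IRE1fl; Gas6 held most of both sums, and its call was lost without IRE1PKO 3 or IRE1fl 2. None of 8 myofibroblast and smooth muscle markers passed by edgeR, DESeq2 or limma-voom (median -0.086). Of these, 1 was higher and 1 lower at an unadjusted p under 0.05. No share of all genes was counted at that unadjusted cutoff. Tpm2, the most abundant of these markers, averaged 12.8 ± 2.82 CPM in IRE1PKO and 8.27 ± 4.18 CPM in IRE1fl. Acta2, named after its values were seen, went the other way, with 3.03 ± 0.470 and 3.85 ± 2.23 CPM. The list sums, 31.0 to 42.4 and 20.1 to 41.5 CPM, overlapped.

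Of 18 endothelial markers, 5 rose and none fell (median 0.40), with sums of 421 to 574 CPM in IRE1PKO and 356 to 402 CPM in IRE1fl and no listed gene at 0. Flt4, Fcgr2b and Pecam1 rose by 0.68 (SE 0.14), 0.48 (SE 0.12) and 0.47 (SE 0.12), and Stab2 and Cdh5, named after their values were seen, were the others. No endothelial marker passed without IRE1PKO 1 or without IRE1fl 3, and 1 passed without IRE1PKO 2 or IRE1fl 2. Over all tested genes, 5.68% were called higher and 3.86% lower. Of 14 hepatocyte markers none rose and 4 fell (median -0.35). These were Serpina1a by 0.90 (SE 0.11), Cps1 by 1.16 (SE 0.15), Tat by 1.10 (SE 0.18) and Ahsg, named after its values were seen. The Ahsg call was lost without IRE1PKO 2, IRE1PKO 3 or IRE1fl 3 (edgeR adjusted p at most 0.0984). The summed level of the list was 107404 to 131232 CPM in IRE1PKO and 117415 to 140109 CPM in IRE1fl. Alb, the largest part of these sums, averaged 64302 ± 7001 CPM in IRE1PKO and 63170 ± 7019 CPM in IRE1fl, a log2 difference of 0.026 (SE 0.14). The part of cell numbers in the collagen values was not tested.

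**Figure D5:**
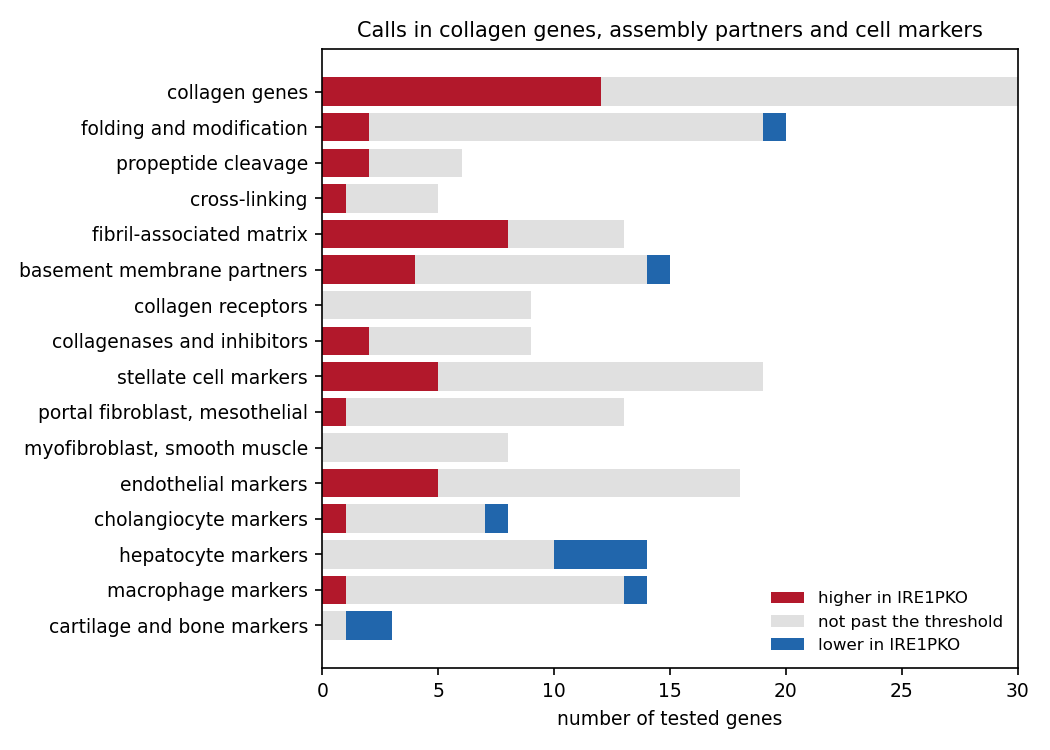
Each bar counts the tested genes of a list that were higher in IRE1PKO (red), not past the threshold (grey) or lower in IRE1PKO (blue) by edgeR at an adjusted p of 0.05. Collagen genes have 12 of 30 in red, fibril-associated matrix 8 of 13 and stellate cell markers 5 of 19, while myofibroblast markers and collagen receptors have none.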

How the data were processed

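The deposited data are whole-number counts for each gene symbol, not normalized by the authors, in 6 columns of a single table. The submitters' processing notes name mm10 as the build. No source used here names the aligner, counting program, annotation or strand setting. Among values from 1 to 8 there were 2.58 to 3.19 even values for each odd one, so both mates of a pair may have been counted. Where exons overlap another gene (Col4a1 and Col4a2 share 22 bases on opposite strands, Col3a1 shares 141 bases with Gm47302), the assignment of reads is uncertain. The 27 date-like names, with 0.178% of counts, stayed in.

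The test was the robust, two-sided quasi-likelihood test of edgeR 4.0.16 in R 4.3.3, on TMM-scaled counts of the 14954 genes that passed filterByExpr, and p-values were adjusted by Benjamini-Hochberg across them. A positive log2 fold change means higher in IRE1PKO, and SE is the fold change divided by the square root of F. CPM uses the scaled totals of tested genes. No library was a copy of another of its group: the chi-square, averaged over genes, was 30.7 to 68.5 in same-group pairs. Pairs across the groups were not compared by this value. The steps were tested on simulated data. Coordinates, exon lengths and coding sequences come from GENCODE M21, promoter windows from RefSeq (GRCm38.p6). Of 201 listed symbols, 2 were found under older names, and 1 was not found. Every tested member is named; members past the threshold and the 3 most abundant tested members of each type have a value per library, as do some chosen after their values were seen. Of each list, up to 3 called genes with the smallest p are named, or the most abundant where none passed. Members and lists were chosen with earlier results of these data known. An exact permutation test of 3 against 3 libraries cannot go below 0.1. Alternatives were DESeq2 1.42.0 size factors and Wald test, limma-voom (limma 3.58.1), other filters, thresholds and scalings, halved counts, a replicate block and each library left out; collagen share without Col18a1 and the order of levels with each library left out were added after the data were seen.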

Additional observations from a re-analysis of the deposited data

How the results depend on the processing

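The 12 collagen genes that rose did so under each of the 10 alternatives that kept all libraries. Among these, the threshold of 0.1 reads the main fit at a looser cutoff and could not lose a call. With each library left out, 8 to 10 of the 12 were called, and without IRE1fl 2 Col27a1 was called as well. In all 16 alternatives, 8 of the 12 were kept. No called member changed sign. The number called lower, 0, was 1 with library totals only, without the filter, at a mean of 1 CPM, without robust fitting and with the replicate block, and 2 with the DESeq2 Wald test and at a threshold of 0.1 (Col25a1, Col4a4 or both); with each library left out it was 0 to 1. The median of tested members was 0.034 without the filter (41 members) and 0.71 at a mean of 1 CPM (23 members), and 0.17 to 0.47 with each library left out. The log2 ratio of the collagen share, 0.19, was 0.84 without Col18a1 and 0.15 to 0.24 with each library left out. Signs turned only in members that did not pass: Col11a2 (0.032 with library totals only; -0.29 to 0.12 with each library left out), Col27a1 (-0.085 to 1.001), Col4a3 (-2.54 to 0.091), Col5a2 (-0.31 to 1.04), Col5a3 (-0.13 to 0.13), Col7a1 (-0.72 to 0.30) and Col8a1 (-0.033 to 0.64). The cause was not tested. Of 36 other named genes that passed, 17 did so in every alternative run on them. Hepatocyte markers called lower numbered 8 with the DESeq2 Wald test, against 4. That test called 890 of all 14954 tested genes lower and 1182 higher, against 577 and 849. Endothelial markers called higher numbered 0 to 8 with each library left out, against 5. Those fits called 398 to 868 genes higher, of 15288 to 15375 tested. Over all genes, 849 higher and 577 lower became 398 and 255 without IRE1PKO 1. Library totals moved the median of all genes to 0.07. Same-numbered libraries shared deviations with r of 0.12, -0.02 and 0.18, against at most 0.07, 0.04 and -0.04 with a library of another number. These weak values cannot decide whether the numbers pair the samples. The replicate block called 12 members higher and 1 lower, against 12 and 0 without it. Over all genes it called 1051 higher and 814 lower, against 849 and 577. Precision is limited by 3 libraries a group, and scarce members such as Col6a4 by few counts.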

Other observations

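Markers of other cells were counted in the same fit, which called 5.68% of all tested genes higher and 3.86% lower. Of 8 tested cholangiocyte markers, Spp1 rose by 0.81 (SE 0.13) and Sox9 fell by 1.28 (SE 0.22), with list sums of 59.0 to 69.2 CPM in IRE1PKO and 54.4 to 59.3 CPM in IRE1fl. Of 14 macrophage markers, Gpnmb rose by 3.57 (SE 0.48) and Marco fell by 0.84 (SE 0.13). The sums, 478 to 635 and 380 to 526 CPM in IRE1PKO and IRE1fl, overlapped. The DESeq2 Wald test called 4 of these markers higher, and 1182 of all 14954 tested genes. Of 10 cartilage and bone markers, 6 had no count in any library, among them Acan and Bglap, and 3 were tested. Sox9 and Lect1, a chondrocyte gene, fell, the second by 1.27 (SE 0.35), a call lost in 8 of 16 alternatives. The cartilage list summed to 6.11 to 9.04 CPM in IRE1PKO and 17.6 to 18.2 CPM in IRE1fl. Sox9, the same gene as in the cholangiocyte list, held most of both sums, averaging 5.02 CPM in IRE1PKO and 12.2 CPM in IRE1fl.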
